A study of Mus musculus with 4 samples.

Results

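Ferroptosis is a form of cell death in which iron drives the peroxidation of membrane lipids, and cells hold it off with glutathione, with the selenoenzyme GPX4 and with antioxidant genes that the transcription factor NRF2 switches on. Here 10 genes of this system were followed in mouse regulatory T (Treg) cells that were sorted with and without deletion of the transferrin receptor TfR1, the main route by which T cells take up iron. They were chosen by name and role, with earlier results of these data known. *Acsl4* and *Lpcat3* make lipids that can be peroxidised, *Gpx4* and *Aifm2* hold lipid peroxidation back, *Gclc* and *Gclm* make the first intermediate of glutathione, *Nfe2l2* and *Keap1* encode NRF2 and its inhibitor, and *Txnrd1* and *Srxn1* are targets of NRF2. All 10 were among the 47729 genes listed in the count table, and 9 of them were among the 12536 genes with enough counts to be tested; *Srxn1* was not.

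RNA was read in 4 libraries, of which 2 carry the label WT and 2 the label TfR1 cko, called TfR1-deficient here. Mice of the first group were *Tfrc* +/+ *Foxp3* YFP-Cre/+ and those of the second *Tfrc* fl/fl *Foxp3* YFP-Cre/+, so that both carried the Cre allele. All were C57BL/6 by their labels, and the labels give no age. CD4 cells positive for CD25 and YFP were sorted from spleen, and the legend of the study adds lymph nodes. Cre and YFP are made from the *Foxp3* locus on the X chromosome, so in these heterozygous females the sort takes the share of Treg cells in which that X chromosome is active. Total counts were 12365708 and 10841939 in the WT libraries and 17278448 and 13454577 in the TfR1-deficient libraries.

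The labels could not be checked from the targeted gene. *Tfrc* stood at 50.8 and 54.1 CPM (TMM-scaled counts relative to library size) in the libraries labelled WT and at 56.1 and 48.3 CPM in those labelled TfR1-deficient, a log2 fold change of -0.01 (edgeR, adjusted p = 0.999). The count covers the whole gene, so reads from the deleted part were not seen apart, and every direction given for TfR1 deficiency rests on the labels. The 8 Treg markers, none at 0 in any library, summed to 4893.8 and 4654.7 CPM in WT and to 4068.5 and 3610.9 CPM in libraries labelled TfR1-deficient, which did not overlap. Of them *Ctla4*, an inhibitory receptor of Treg cells, stood at 407 and 427 CPM against 241 and 235 CPM, a log2 fold change of -0.81 that passed an unadjusted p under 0.05 and not the adjusted threshold (edgeR, adjusted p = 0.911). *Il2ra*, *Cd4* and *Cd3e* were also lower with no overlap, and *Foxp3* stood at 194 and 130.3 CPM in WT and 122 and 114 CPM in TfR1-deficient libraries. The genotypes overlapped for *Ikzf2*, *Cd3d* and *Tnfrsf18*, and the log2 fold change of *Tnfrsf18* was 0.05. Over all genes tested, 18.9% were lower with no overlap. Other cells also differed between replicates. The 20 macrophage markers were all higher in WT replicate 1 and TfR1-deficient replicate 2, where their CPM summed to 1217.1 and 3714.9, than in WT replicate 2 and TfR1-deficient replicate 1, where the sums were 99.5 and 74.9. The 10 proliferation genes split in the same way, at 1480.9 and 1407.8 CPM against 606.7 and 633.4 CPM. The erythroid markers summed to between 17.5 and 286.7 CPM, highest in TfR1-deficient replicate 2. Those of B cells (27.4 to 42.7), CD8 T and NK cells (28.2 to 29.8), dendritic cells (26.5 to 41.0) and platelets (1.88 to 3.56, with *Gp1bb* at 0 throughout) stayed low. In bulk RNA, fewer cells of a type and less RNA per cell cannot be told apart. The part of these cells in the results on antioxidant genes was not tested, and neither was that of the lower Treg markers.

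NRF2 is held in the cytoplasm by KEAP1, which hands it to the ubiquitin ligase built on CUL3. When electrophiles or oxidants modify KEAP1, NRF2 escapes, pairs with a small MAF protein in the nucleus and binds antioxidant response elements near genes for glutathione synthesis, thioredoxin recycling, NADPH supply, haem breakdown and iron storage. ACSL4 loads polyunsaturated fatty acids onto coenzyme A and LPCAT3 puts them into membrane phospholipids, GPX4 reduces the peroxides of those phospholipids with glutathione, and AIFM2 (FSP1) recycles the coenzyme Q that traps lipid radicals.

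The core of the antioxidant response element, TGACNNNGC, was looked for on both strands of each RefSeq promoter window, from 250 bases before to 50 after an annotated start, since the targets of NRF2 are read through this element. Of the 9 genes with a window, 4 held the core in at least 1 window (44.4%), against 3781 of 27025 genes (14.0%) over the whole table. By window these were 4 of 14 against 4071 of 32851 (12.4%). The genes were chosen by role, with targets of NRF2 among them, so a higher share was partly built in. These shares are a description only. The 4 matches are shown here with the core in capitals, 5′ to 3′ on the strand of the gene (GRCm38.p6). That of *Nfe2l2* lies at chr2:75704814-75704913 on the minus strand and reads in the forward direction, that of *Gclm* at chr3:122245378-122245477, that of *Txnrd1* at chr10:82859069-82859168 and that of *Srxn1* at chr2:152105541-152105570, all 3 on the plus strand and with the core in reverse.
Nfe2l2: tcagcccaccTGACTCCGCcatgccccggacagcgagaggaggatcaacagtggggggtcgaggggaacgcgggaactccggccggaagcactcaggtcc
Gclm: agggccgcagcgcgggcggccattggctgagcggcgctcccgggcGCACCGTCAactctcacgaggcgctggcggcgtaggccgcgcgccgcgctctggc
Txnrd1: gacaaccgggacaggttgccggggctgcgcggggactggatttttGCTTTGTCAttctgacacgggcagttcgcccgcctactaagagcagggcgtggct
Srxn1: ggcagtgggcaGCTAGGTCAgagtgagaca
In *Srxn1* the match starts 29 bases after the start site, and in *Nfe2l2*, *Gclm* and *Txnrd1* it starts at position -240, -134 and -92 from it; the *Txnrd1* match is in 1 of that gene's 3 windows. *Gpx4*, *Acsl4*, *Aifm2*, *Lpcat3* and *Keap1* had no match in this window, and *Gclc* had no entry. A match in letters is not a bound site, and no binding was measured.

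No gene of the 10 passed the test for a genotype difference. A call needed an adjusted p under 0.05 and a log2 fold change of 0.5 or more in either direction in edgeR's quasi-likelihood test, and 0 of the 9 tested genes met it, as did 0 of the 12536 genes tested (0.0%). At an unadjusted p under 0.05 with the same minimum change, 0 of 9 passed, against 4.08% of all genes (200 higher and 311 lower), and with no minimum change again 0 of 9, against 5.22%. DESeq2 called 7 genes higher and 37 lower over the whole table and none of the 9, with adjusted p = 1.0 for all but *Aifm2*, which it gave no adjusted value. The libraries of the genotypes did not overlap in 7 of 9 genes (77.8%), against 34.9% of all genes; 5 were higher in the libraries labelled TfR1-deficient, against 16.0% of all genes, and 2 were lower, against 18.9%. The genes were chosen with earlier results of these data known, so these shares are a description only. With 2 libraries a group an exact two-sided permutation test of 1 gene cannot go below p = 0.333. The median log2 fold change of the 9 was 0.17, against 0.01 over all genes.

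**Figure D1:**
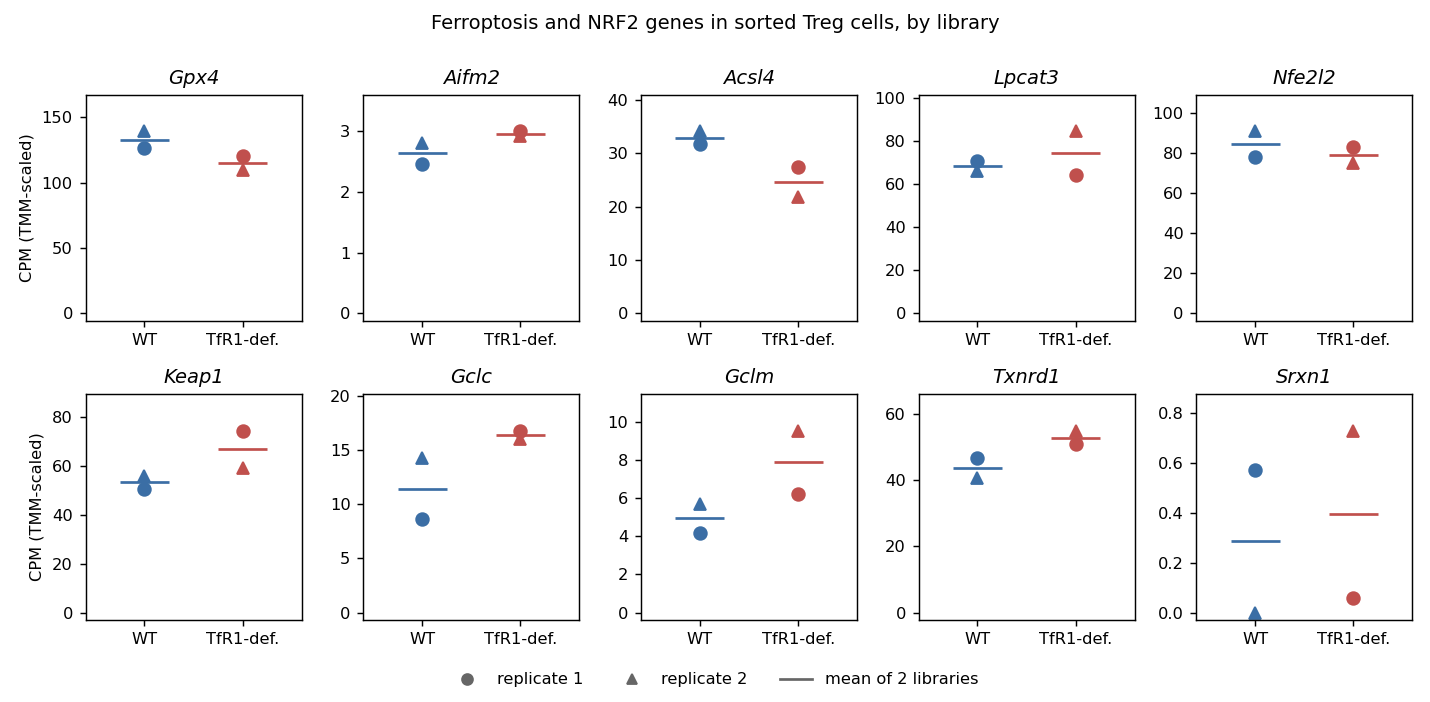
CPM after TMM scaling (y axis, from 0) of each of the 10 genes in the 2 WT and 2 TfR1-deficient libraries; points are single libraries, circles replicate 1 and triangles replicate 2, and bars are group means. *Gclc*, *Gclm*, *Keap1*, *Txnrd1* and *Aifm2* are higher and *Gpx4* and *Acsl4* lower in both TfR1-deficient libraries, while *Lpcat3*, *Nfe2l2* and *Srxn1* overlap.

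Per kilobase of exon, *Gpx4* had the highest mean level of the 10 genes. It stood at 73.8 CPM per kilobase (65.2 to 83.0 over the 4 libraries), above *Lpcat3* at 21.8 (19.6 to 25.8) and *Nfe2l2* at 21.5 (19.8 to 23.9), whose ranges overlap. *Keap1* at 13.4 (11.3 to 16.6) and *Txnrd1* at 11.99 (10.1 to 13.7) overlapped as well, and so did *Acsl4* at 5.33 (4.05 to 6.31) and *Gclc* at 4.08 (2.53 to 4.92). *Gclm* at 1.25 (0.813 to 1.86), *Aifm2* at 0.679 (0.596 to 0.727) and *Srxn1* at 0.121 (0.0 to 0.259) followed in this order with no overlap. The lowest library for *Gpx4*, the glutathione-dependent enzyme of lipid peroxide repair, lay far above the highest for *Aifm2*, the enzyme of the coenzyme Q route. The exon lengths behind these levels come from GENCODE vM1, an older annotation than the one counted.

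Both lipid-loading enzymes were well measured, and their fold changes had opposite signs. *Acsl4* (ENSMUSG00000031278, chrX:142317993-142390802, minus strand) is the enzyme that commits arachidonate and adrenate to phospholipids and is widely used as a marker of sensitivity to ferroptosis. Its level was 31.8 and 34.1 CPM in WT against 27.5 and 21.9 CPM in libraries labelled TfR1-deficient, 32.9 ± 1.67 against 24.7 ± 3.95 (mean ± SD, n = 2 each). Both TfR1-deficient values lie below both WT values. The log2 fold change was -0.41 with a standard error of 0.21 (95% interval -0.95 to 0.12; edgeR, adjusted p = 0.911). It is the most negative value among the 9 tested genes, and it was -0.59 when TfR1-deficient replicate 1 was left out and -0.26 when replicate 2 was.

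*Lpcat3* (ENSMUSG00000004270, chr6:124663094-124704716, plus strand), the acyltransferase that acts after ACSL4, stood at 70.9 and 66.0 CPM in WT and at 64.1 and 84.4 CPM in TfR1-deficient libraries. The genotypes overlapped, with TfR1-deficient replicate 2 highest and replicate 1 lowest of all 4. Its log2 fold change of 0.12 (SE 0.18, edgeR adjusted p = 0.967) turned to -0.10 without TfR1-deficient replicate 2 and was 0.30 without replicate 1. *Lpcat3* was higher in both libraries with most macrophage RNA than in both others, which held for 22.9% of all genes. Its log2 ratio was 0.25 between the 2 libraries with most macrophage RNA and -0.04 between the others. Its exons also overlap those of *Emg1* on the opposite strand, a ribosome biogenesis gene with 3358 to 5317 counts a library, and because the kit does not mark strand, reads from the shared part cannot be told apart.

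Of the enzymes that hold lipid peroxidation back, 1 was abundant and 1 was low, and neither passed the test. *Gpx4* (ENSMUSG00000075706, chr10:80047166-80056439, plus strand), the selenoenzyme that reduces phospholipid hydroperoxides, stood at 126 and 139 CPM in WT and at 120.2 and 109 CPM in libraries labelled TfR1-deficient. The groups did not overlap, although the lowest WT and the highest TfR1-deficient library lay close together. Its log2 fold change of -0.21 had a standard error of 0.14, the smallest of the 9, and an interval from -0.57 to 0.16 (edgeR, adjusted p = 0.938). Leaving out 1 library at a time gave -0.28 to -0.14. Within each genotype the library with most macrophage RNA, also that with most proliferation RNA, had the lower *Gpx4* value. How many of all genes keep this order was not counted. The 2 ratios across genotypes, replicate 1 over WT replicate 2 and replicate 2 over WT replicate 1, were both -0.21 on the log2 scale.

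*Aifm2* (ENSMUSG00000020085, chr10:61715263-61739260, plus strand), the oxidoreductase that acts apart from glutathione, was low. It had 30 and 30 counts in WT and 52 and 40 in TfR1-deficient libraries, or 2.46 and 2.81 against 2.997 and 2.92 CPM. Both TfR1-deficient values lie above both WT values, but the 95% Poisson intervals of the counts, 1.66 to 3.51 and 1.90 to 4.01 CPM in WT and 2.24 to 3.93 and 2.09 to 3.98 CPM in TfR1-deficient libraries, overlap throughout, and they cover counting error only. Its log2 fold change was 0.17 with the widest interval of the 9, -0.84 to 1.18 (edgeR, adjusted p = 0.983), and leaving out 1 library at a time gave 0.08 to 0.27.

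Both subunits of glutamate cysteine ligase, the first and rate-limiting step of glutathione synthesis, had the largest positive fold changes of the 9 genes in the libraries labelled TfR1-deficient, and neither passed the test. The catalytic subunit *Gclc* (ENSMUSG00000032350, chr9:77754535-77794489, plus strand) stood at 8.68 and 14.2 CPM in WT and at 16.8 and 16.1 CPM in TfR1-deficient libraries, 11.5 ± 3.94 against 16.4 ± 0.542 (mean ± SD, n = 2 each). The TfR1-deficient libraries were alike, and the distance between the genotypes came mainly from WT replicate 1. The log2 fold change was 0.52 (SE 0.32, 95% interval -0.30 to 1.35; edgeR, adjusted p = 0.934), and it was 0.22 without WT replicate 1 and 0.92 without WT replicate 2.

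The modifier subunit *Gclm* (ENSMUSG00000028124, chr3:122245487-122267215, plus strand), which lowers feedback inhibition of the enzyme by glutathione, had 51 and 61 counts in WT and 108 and 131 in TfR1-deficient libraries. In CPM these were 4.17 and 5.72 against 6.22 and 9.56, with TfR1-deficient replicate 2 well above the other 3. The log2 fold change was 0.67 (SE 0.39, 95% interval -0.32 to 1.66; edgeR, adjusted p = 0.934). It was 0.33 without TfR1-deficient replicate 2 and 0.95 without replicate 1. A predicted gene on the opposite strand, *Gm17494*, shares exon bases with *Gclm* and had 2 and 0 counts in WT and 3 and 15 in TfR1-deficient libraries. Taken per kilobase, *Gclc* exceeded *Gclm* by 3.12 and 3.74 times in WT and by 4.06 and 2.52 times in TfR1-deficient libraries, so the ratio of the subunits overlapped between genotypes.

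The size of both differences depended on which libraries were paired. TfR1-deficient replicate 1 over WT replicate 2, the libraries with least macrophage RNA, gave 0.24 for *Gclc* and 0.12 for *Gclm* on the log2 scale. TfR1-deficient replicate 2 over WT replicate 1, those with most, gave 0.88 and 1.17. Because the genotypes do not overlap for either gene, every such pair must show a rise, so the pairs inform on its size only. Within each genotype *Gclc* was lower in the library with most macrophage RNA, at 8.68 against 14.2 CPM in WT and 16.1 against 16.8 CPM in TfR1-deficient libraries. *Gclm* was lower there in WT (4.17 against 5.72 CPM) and higher there in TfR1-deficient libraries (9.56 against 6.22 CPM). How many of all genes keep such orders was not counted. The part of macrophage RNA or of dividing cells in the difference was not tested.

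**Figure D2:**
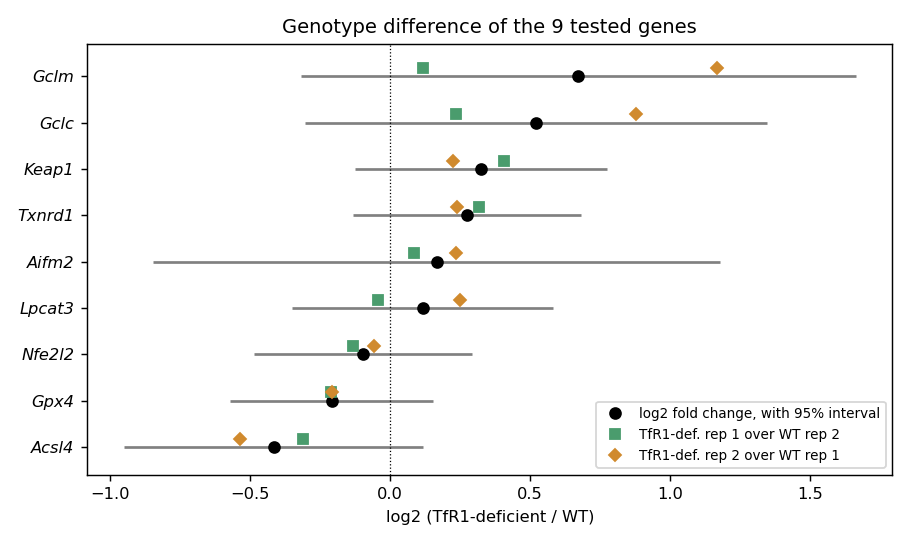
Log2 fold change of TfR1-deficient over WT libraries (x axis) for each of the 9 tested genes; black points are edgeR estimates with 95% intervals, and squares and diamonds are ratios of 1 library to 1. All 9 intervals cross 0; the square and diamond lie far apart for *Gclm* and *Gclc* and lie close together for *Gpx4*.

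NRF2 and its inhibitor were both well measured. *Nfe2l2* (ENSMUSG00000015839, chr2:75675513-75704663, minus strand) stood at 78.2 and 90.8 CPM in WT and at 82.9 and 75.3 CPM in TfR1-deficient libraries. The genotypes overlapped, with a log2 fold change of -0.09 (SE 0.15, 95% interval -0.48 to 0.29; edgeR adjusted p = 0.967) that was 0.02 without WT replicate 2. It was lower in both libraries with most macrophage RNA than in both others, which held for 25.5% of all genes. NRF2 is controlled mostly through the stability of the protein, which RNA does not show.

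*Keap1* (ENSMUSG00000003308, chr9:21229730-21239332, minus strand), the adaptor that marks NRF2 for degradation, stood at 50.5 and 56.0 CPM in WT and at 74.3 and 59.1 CPM in libraries labelled TfR1-deficient. All TfR1-deficient values lie above the WT values, and replicate 1 lies highest. The log2 fold change was 0.33 (SE 0.18, 95% interval -0.12 to 0.78; edgeR, adjusted p = 0.921), between 0.15 without TfR1-deficient replicate 1 and 0.48 without replicate 2. Read against *Nfe2l2* within the same library and per kilobase, *Keap1* RNA stood at 0.549 and 0.523 in WT and at 0.761 and 0.667 in TfR1-deficient libraries. This ratio does not depend on library scaling and did not overlap between genotypes. It was chosen after the values were seen and was not tested. The exons of *Keap1* overlap those of *Gm16754* on the opposite strand, for which no counts were given. Reads from the shared part cannot be told apart, because the kit does not mark strand.

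Both NRF2 targets that complete the 10 genes serve thiol repair. *Txnrd1* (ENSMUSG00000020250, chr10:82833951-82897724, plus strand), the cytosolic selenoenzyme that recycles thioredoxin, stood at 46.5 and 40.7 CPM in WT and at 50.7 and 54.9 CPM in libraries labelled TfR1-deficient. Both TfR1-deficient values lie above both WT values. A log2 fold change of 0.28 (SE 0.16, 95% interval -0.13 to 0.68; edgeR, adjusted p = 0.934) resulted, and it was 0.18 without WT replicate 2 and 0.39 without WT replicate 1. Within each genotype it was higher in the library with most macrophage RNA, which also held most RNA of the proliferation genes. How many of all genes keep this order was not counted.

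*Srxn1* (ENSMUSG00000032802, chr2:152105524-152111376, plus strand), which restores over-oxidised peroxiredoxins, was near the limit of detection. It had 7 counts and 0 counts in WT and 1 and 10 counts in TfR1-deficient libraries, or 0.573, 0.0, 0.0576 and 0.730 CPM. The 0 in WT replicate 2 allows up to 0.346 CPM by its 95% Poisson interval, and 3 counts in that library would be 0.281 CPM. The order of the 4 libraries is that of the macrophage gene *Csf1r*, at 124, 1.97, 4.96 and 371 CPM, and with so few counts no genotype difference could be detected.

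The rest of the pathway was read from 9 lists of 167 genes in all, of which 138 were tested. At an adjusted p under 0.05 no gene was called in any list, and at an unadjusted p under 0.05 with the minimum change 0 were higher and 2 lower (1.45%, against 4.08% of all genes). The groups did not overlap in 21 genes that were higher (15.2%, against 16.0% of all genes) and 20 that were lower (14.5%, against 18.9%) in the TfR1-deficient libraries, and the median log2 fold change over the lists was 0.02. Without the 10 genes themselves, 129 tested genes had 16 higher and 18 lower and a median of 0.02.

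**Figure D3:**
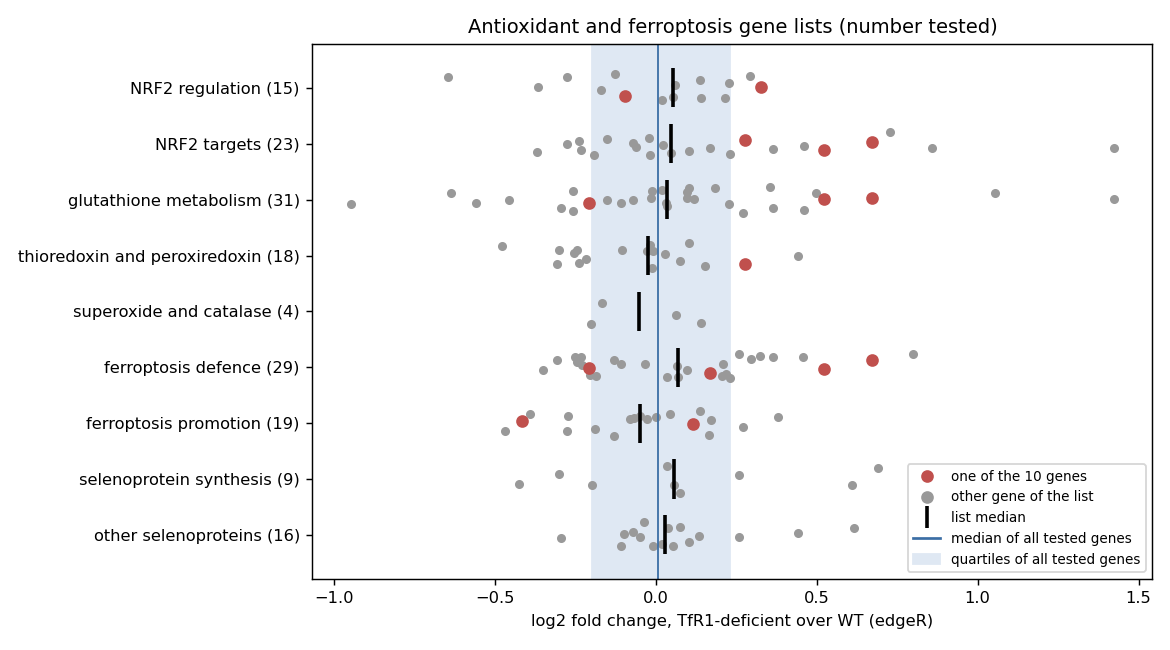
Log2 fold change of TfR1-deficient over WT libraries (x axis) of each tested gene in the 9 lists, with the number tested in brackets; red points belong to the 10 genes, black bars are list medians, and the band holds the quartiles of all 12536 genes. List medians lie between -0.05 and 0.07, all inside the band. *Gclc*, *Gclm*, *Keap1*, *Txnrd1*, *Acsl4* and *Gpx4* lie outside it, *Gpx4* (-0.2076) only just beyond the lower quartile (-0.1978). A band of quartiles leaves many single genes outside by construction, so a place outside it does not set these genes apart.

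Among regulators of NRF2 (15 of 16 tested, median 0.05) 1 gene was higher (6.67%, against 16.0% of all genes) and 3 of 15 were lower (against 18.9%) with no overlap. *Mafk*, a small MAF protein that binds the antioxidant response element together with NRF2 and also with the repressor BACH1, stood at 51.2 and 54.6 CPM in WT and at 34.3 and 33.4 CPM in libraries labelled TfR1-deficient. The libraries of each genotype lay close together and those of the other genotype well apart. Its log2 fold change was -0.64 (SE 0.15), which passed at an unadjusted p under 0.05 and not after adjustment (edgeR, adjusted p = 0.911). It no longer passed without WT replicate 2, at -0.60. *Nfe2l1*, a relative of NRF2 that controls proteasome genes, stood at 93.6 and 73.5 CPM against 60.5 and 69.3 CPM (log2 fold change -0.37, edgeR adjusted p = 0.911; -0.17 without WT replicate 1). *Cul3*, the scaffold of the ligase that KEAP1 serves, stood at 39.2 and 47.2 CPM against 60.6 and 45.2 CPM, a log2 fold change of 0.29 with overlapping genotypes and of 0.064 without TfR1-deficient replicate 1.

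Over the NRF2 targets (23 of 32 tested, median 0.05) 3 genes were higher and 3 lower with no overlap (13.0% each, against 16.0% and 18.9% of all genes), and the 3 higher were *Gclc*, *Gclm* and *Txnrd1*. Some targets often used to read NRF2 activity outside T cells had too few counts to be tested here. *Nqo1* had 10 and 3 counts in WT and 5 and 2 in TfR1-deficient libraries, and *Slc7a11*, the cystine carrier that feeds glutathione synthesis, had 2 and 1 against 1 and 7. *Abcc1*, which exports glutathione conjugates, stood at 67.7 and 48.8 CPM against 45.1 and 45.2 CPM (log2 fold change -0.37, but -0.10 without WT replicate 1), and *Sqstm1*, an autophagy receptor that competes for KEAP1, at 347 and 284 CPM against 245 and 276 CPM (-0.28, and -0.11 without WT replicate 1). For *Abcc1* the ratio was -0.58 between the libraries with most macrophage RNA and -0.11 between those with least.

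The list of NRF2 targets also split along the libraries with most macrophage RNA, which were also those with most RNA of the proliferation genes. Of its 23 tested genes 14 (60.9%) were higher in WT replicate 1 and TfR1-deficient replicate 2 than in both others, against 22.9% of all genes. A gene whose genotypes do not overlap cannot show this order, so *Gclc*, *Gclm* and *Txnrd1* are not read against it. *Hmox1*, the haem oxygenase that macrophages carry at high levels, stood at 38.4 and 2.81 CPM in WT and at 1.09 and 73.9 CPM in TfR1-deficient libraries. The log2 fold change of 0.86 (SE 1.81) was -4.23 without TfR1-deficient replicate 2 and 3.76 without WT replicate 1. *Mgst1*, a membrane glutathione transferase, was split in the same way, at 1.23 and 0.0937 CPM against 0.115 and 3.58 CPM. The ferritin chain *Fth1*, which stores iron, stood at 627 and 369 CPM in WT and at 273 and 576 CPM in TfR1-deficient libraries, and *Ftl1* at 2004 and 1813 CPM against 1699 and 2778 CPM. For these genes the 2 libraries of at least 1 genotype differed more than the genotype means did. The part of macrophage RNA or of dividing cells in it was not tested.

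**Figure D4:**
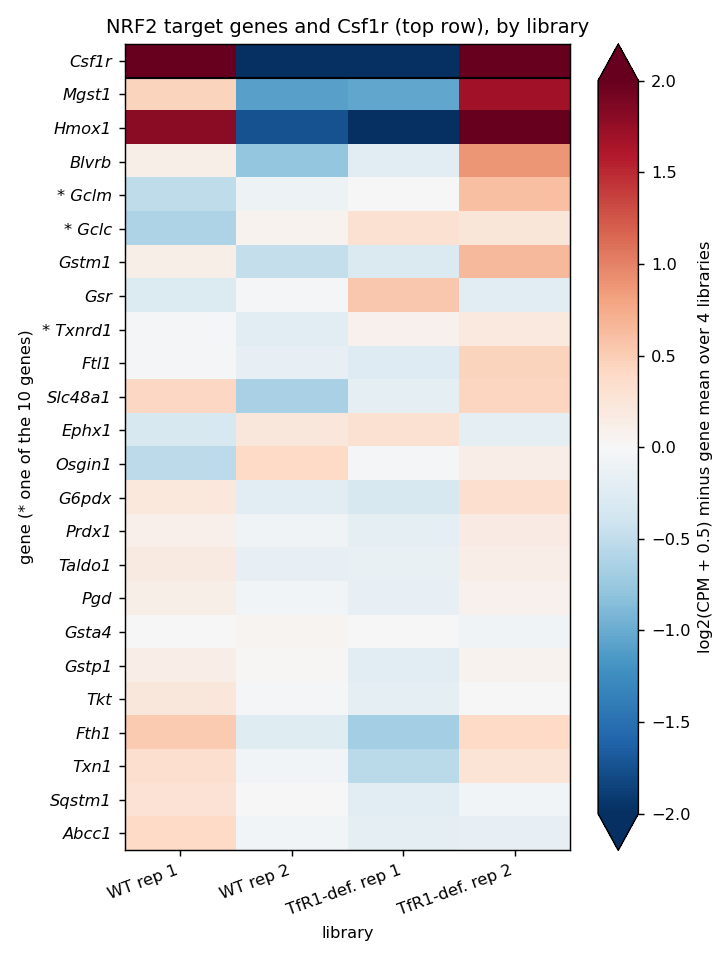
Log2(CPM + 0.5) minus the mean of the 4 libraries (colour, cut at -2 and 2) for *Csf1r* (top row) and the 23 tested NRF2 targets, ordered by log2 fold change from highest to lowest; columns are libraries and asterisks mark genes of the 10. *Hmox1* and *Mgst1* follow *Csf1r* with high values in WT replicate 1 and TfR1-deficient replicate 2.

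Glutathione metabolism (31 of 36 tested, median 0.04) held 6 higher genes with no overlap (19.4%, against 16.0% of all genes) and 7 lower (22.6%, against 18.9%). *Glrx*, the cytosolic glutaredoxin that removes glutathione from proteins, stood at 77.6 and 61.5 CPM in WT and at 36.0 and 53.7 CPM in libraries labelled TfR1-deficient. It had a log2 fold change of -0.64 (SE 0.25; edgeR, adjusted p = 0.911) and lay at the edge of an unadjusted p of 0.05. With DESeq2 size factors, total library size, at least 10 counts in every library or the replicate block it no longer passed, nor did it without WT replicate 1 (-0.44) or without TfR1-deficient replicate 1 (-0.37), and it was -0.95 without TfR1-deficient replicate 2. *Glrx5*, which serves iron-sulphur cluster assembly in mitochondria, was low, at 1.31 and 0.562 CPM against 1.96 and 1.97 CPM (log2 fold change 1.05, SE 0.62, edgeR adjusted p = 0.934; 0.58 without WT replicate 2 and 1.80 without WT replicate 1). The genotypes overlapped for later steps of glutathione synthesis and recycling. *Gss* stood at 13.9 and 10.6 CPM against 11.99 and 14.2 CPM, and *Gsr* at 7.78 and 9.37 CPM against 14.0 and 8.03 CPM.

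In the thioredoxin and peroxiredoxin list (18 of 20 tested, median -0.02) *Txnip*, the inhibitor of thioredoxin, had the most negative fold change, at 264 and 226 CPM in WT and 205.0 and 147 CPM in TfR1-deficient libraries, with no overlap and no call (log2 fold change -0.48, edgeR, adjusted p = 0.911). The value was -0.26 without TfR1-deficient replicate 2 and -0.74 without replicate 1, and it was -0.84 between the libraries with most macrophage RNA and -0.14 between those with least. *Txnrd1* was 1 of 4 genes of the list that were higher with no overlap (22.2%, against 16.0% of all genes). The superoxide and catalase list (4 of 5 tested, median -0.05) had 0 of 4 genes higher (against 16.0% of all genes) with no overlap. Lower with no overlap was 1 of 4 (against 18.9% of all genes). This gene was *Sod2*, the mitochondrial superoxide dismutase, at 69.8 and 75.3 CPM against 63.5 and 62.8 CPM. It was not called (log2 fold change -0.20, edgeR, adjusted p = 0.938).

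Ferroptosis defence (29 of 33 tested, median 0.07) had 9 higher genes with no overlap (31.0%, against 16.0% of all genes) and 4 lower (13.8%, against 18.9%); *Gclc*, *Gclm* and *Aifm2* are among the 9 and *Gpx4* among the 4. *Gch1*, the first enzyme of tetrahydrobiopterin synthesis, was low, at 2.29 and 2.06 CPM against 3.29 and 2.701 CPM. *Coq3* and *Coq9*, which serve coenzyme Q synthesis and so the substrate of AIFM2, stood lower with no overlap, at 14.0 and 13.3 CPM against 10.6 and 10.8 CPM and at 36.6 and 31.9 CPM against 25.8 and 29.6 CPM.

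Ferroptosis promotion (19 of 27 tested, median -0.05) had 0 higher (against 16.0% of all genes) and 2 lower genes (10.5%, against 18.9%) with no overlap, *Acsl4* and *Dpp4*. *Dpp4* (CD26), a surface peptidase that can feed lipid peroxidation through NADPH oxidase, stood at 125 and 108 CPM in WT and at 83.5 and 85.3 CPM in libraries labelled TfR1-deficient. The log2 fold change of -0.47 passed an unadjusted p under 0.05 but not the minimum change (edgeR, adjusted p = 0.911). In this list 10 of 19 genes (52.6%, against 22.9% of all genes) were higher in both libraries with most macrophage RNA, *Lpcat3* among them. Those libraries also held most RNA of the proliferation genes.

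GPX4 and TXNRD1 carry selenocysteine, so the machinery that makes and inserts it was read as well. Of the 9 genes for selenoprotein synthesis, all tested with a median of 0.06, 2 were higher (22.2%, against 16.0% of all genes) and 1 lower (11.1%, against 18.9%) with no overlap. *Scly*, which releases selenium from selenocysteine, stood at 63.1 and 63.5 CPM in WT and at 49.3 and 45.0 CPM in TfR1-deficient libraries, a log2 fold change of -0.42 (SE 0.14; edgeR, adjusted p = 0.911) that passed an unadjusted p under 0.05 but not the minimum change. *Trnau1ap*, which binds the selenocysteine tRNA, stood at 16.8 and 13.5 CPM against 20.2 and 26.1 CPM (log2 fold change 0.61, SE 0.26). Other selenoproteins (16 of 19 tested, median 0.03) had 1 gene higher and 1 lower with no overlap (6.25% each, against 16.0% and 18.9% of all genes). The higher was *Selenoo*, a mitochondrial enzyme, at 5.16 and 9.65 CPM against 10.9 and 11.7 CPM (log2 ratio 1.17 between the libraries with most macrophage RNA and 0.18 between those with least), and the lower *Selenof*, of the endoplasmic reticulum, at 269 and 247 CPM against 191 and 230.5 CPM.

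The pathway genes that moved most like each of the 10 were found by the Euclidean distance between log2 CPM, centred on the gene's mean, over the 4 libraries and among 129 other tested genes. *Nfe2l2* lay nearest to *Mafg* at 0.08, a small MAF partner of NRF2, with *Coq5* almost as near at 0.09. *Keap1* lay nearest to *Cul3* at 0.11. *Txnrd1* lay nearest to *Ggt1* and *Aifm2* to *Rbx1*, both at 0.09, *Lpcat3* to *Msrb1* at 0.13 and *Acsl4* to *Scly* at 0.15. The distance is not scaled, so genes that vary little lie near one another. *Gpx4* lay nearest to the superoxide dismutase *Sod2* at 0.09. *Gclc* and *Gclm* shared *Selenoo* as the nearest gene, at 0.21 and 0.48, so that *Gclm* was the least matched of the 9. These are distances over 4 points that share libraries, and they carry no p-value.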

How the data were processed

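Poly-adenylated RNA of CD25+ YFP+ CD4 cells was measured in 4 libraries, 2 per genotype, prepared with a low-input kit that does not mark strand. Per the submitters' processing notes, reads were trimmed with Trim Galore 0.6.7, mapped with STAR 2.7.9a to mm10 and counted with featureCounts; the study's methods name mm9. How strand and multimapping reads were set, and which annotation release was counted, is not given in the sources used here. The table the authors deposited holds raw counts per Ensembl gene in whole numbers, with 1 column a library, and 0 columns of sample values were left unused.

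Of 22368 genes with a count, 12536 were kept by filterByExpr and tested with edgeR 4.0.16 in R 4.3.3 (TMM scaling, quasi-likelihood test, genotype only, Benjamini-Hochberg over all genes). A call needed an adjusted p under 0.05 and a log2 fold change of 0.5 or more in either direction. A standard error is the fold change over the square root of F, and the 95% interval uses the t quantile of the fit. CPM are scaled by TMM. Poisson intervals and the floor of 3 counts cover counting error only. Replicates of a genotype differed beyond sampling noise (chi-square per degree of freedom 29.3 and 45.7), and each was kept as its own replicate. The legend calls them biological replicates; where they share animals, p-values measure only the spread between these libraries.

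The 10 genes, the 9 pathway lists, the marker lists and the tests were chosen with earlier results of these data known. Named were the 10 genes; list genes under an unadjusted p of 0.05 with the minimum change; the 2 largest changes in each direction of a list; *Tfrc*, *Foxp3* and *Csf1r*; and the nearest genes. Not every gene of this rule is printed. The result for 1 such gene is not reported here. *Nfe2l1*, *Cul3*, *Abcc1*, *Sqstm1*, *Fth1*, *Ftl1*, *Gss*, *Gsr*, *Gch1*, *Coq2*, *Coq3*, *Coq5*, *Coq6*, *Coq7*, *Coq9*, *Pdss1*, *Pdss2*, *Dpp4*, *Nqo1*, *Slc7a11*, *Selenof*, *Ctla4*, *Il2ra*, *Cd4*, *Cd3e*, *Ikzf2*, *Cd3d* and *Tnfrsf18* are printed as members of the lists whether or not the rule names them, and were chosen with their values seen. Of 284 list entries 280 matched 1 identifier, 14 by an older symbol. Gene positions and promoter windows are those of RefSeq on GRCm38.p6. DESeq2 1.42.0, other scaling, other filters, a replicate block, single library pairs and leaving out each library were the alternatives. The test was checked on simulated counts.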

Additional observations from a re-analysis of the deposited data

How the results depend on the processing

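The 10 genes gave 0 calls under every alternative with a test, at an adjusted or an unadjusted p, except 1 gene higher at an unadjusted p when the replicate numbers were crossed. Over all genes, the counts at an adjusted p (0 higher, 0 lower) became 167 and 95 with every gene of at least 1 count, and 7 and 37 with DESeq2. At an unadjusted p with the minimum change (200 and 311) there were 650 higher with every gene of at least 1 count. The replicate block gave 70 and 141. Same-numbered libraries deviated in opposite directions (correlation -0.609), which does not settle whether the numbers pair the samples. The crossed pairing, chosen after seeing the data, gave 150 and 210 at an adjusted p and 596 and 519 at an unadjusted p, with 2 pathway genes lower at an adjusted and 3 higher at an unadjusted p. Leaving out 1 library gave 140 (without WT replicate 1) to 372 lower genes.

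Pathway genes lower at an unadjusted p (2) were 1 with DESeq2 size factors, total library size, at least 10 counts in every library or the replicate block, 4 with no minimum change, and 1 to 6 without 1 library; those higher (0) were 1 with every gene of at least 1 count and 0 to 1 without 1 library.

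Leaving out each library in turn turned the sign of the log2 fold change of *Lpcat3* (-0.10 to 0.30), *Nfe2l2* (-0.19 to 0.017), *Hmox1* (-4.23 to 3.76, and -0.13 with the replicate block), *Mgst1* (-2.45 to 4.18), *Prdx4* (-0.61 to 0.094), *Txnrd3* (-0.86 to 1.46), *Sod1* (-0.45 to 0.063), *Cat* (-0.016 to 0.14), *Agps* (-0.36 to 0.70), *Fads1* (-0.080 to 0.73), *Sepsecs* (-0.74 to 0.031) and *Gpx1* (-0.60 to 0.26). List medians moved likewise: NRF2 regulation (-0.030 to -0.0080), NRF2 targets (-0.18 to 0.22), glutathione metabolism (-0.061 to 0.11), thioredoxin and peroxiredoxin (-0.11 to 0.0047), ferroptosis defence (-0.035 to 0.17), ferroptosis promotion (-0.17 to 0.030), selenoprotein synthesis (-0.037 to 0.14) and other selenoproteins (-0.042 to 0.13). TfR1-deficient replicate 1 over WT replicate 2 alone gave medians of 0.087 for the 9 genes, -0.054 for glutathione metabolism, -0.11 for thioredoxin and peroxiredoxin, -0.044 for selenoprotein synthesis and -0.14 for other selenoproteins; replicate 2 over WT replicate 1 gave 0.24 for the 9 genes and -0.074 for selenoprotein synthesis. With every gene of at least 1 count the medians were 0.23 for the 10 genes, 0.076 for superoxide and catalase and 0.18 for ferroptosis defence. The cause of these shifts was not tested. With 2 libraries a genotype, single libraries of both genotypes set these ranges.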
